A study of Mus musculus with 8 samples.

Results

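The genes described here are 8 genes of zinc handling, the metallothioneins Mt1 and Mt2, the zinc exporters Slc30a8 (ZnT8) and Slc30a1 (ZnT1), the zinc importers Slc39a14 (ZIP14), Slc39a6 (ZIP6) and Slc39a8 (ZIP8), and the zinc-sensing transcription factor Mtf1. They were taken by symbol from the 30406 genes that all libraries list, and each symbol matched 1 gene. Islets of male C57BL/6 mice (12 to 16 weeks old, C57BL6/J in the study's methods) were left untreated or were cultured for 18 h with both IL-1β (10 U/mL) and IFN-γ (150 U/mL), hereafter cytokines, with the cytokines and 2 mM NMMA, or with 2 mM NMMA alone, and were then dispersed for single-cell RNA sequencing. NMMA is an inhibitor of nitric oxide synthase, so the comparison of cytokines with and without NMMA asks which mRNA differences depend on nitric oxide made by the islet. Each of the 4 conditions was sequenced in 2 replicates, and the 4 samples of a replicate came from 1 pool of islets from 10 mice. Same-numbered libraries therefore share a pool. In fits without a block, p-values measure the spread between these 2 replicates, which is the main limit of the design as a model of mouse islets. Fits with the replicate number or the library as a block take that difference out. Their p-values rest on the spread that is left, which edgeR estimates in part from all genes, and do not measure the spread between pools.

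The 8 libraries held 26549922 to 50731370 unique molecular identifiers (UMIs, counts of captured mRNA molecules), and 10876 of 17426 barcodes passed the filters on genes and mitochondrial RNA. Cells were named from marker genes as 6319 β-cells, 677 α-cells, 310 δ-cells, 324 macrophages, 283 endothelial cells and 219 mesenchymal cells. Left unnamed were 2421 cells of shallow or unclear clusters, from 28 in cytokines replicate 1 to 852 in untreated replicate 2. Among them was a cluster of 676 low-UMI cells with Mt2 and Mt1 among its 10 leading genes. It held 194 cells of cytokines replicate 2 and 458 of cytokines with NMMA replicate 2. All 11 macrophage markers and all 9 endothelial markers were higher in every library of their class than in any library of the other 5 classes, as were 6 of 7 α-cell markers, 3 of 9 β-cell markers (Ins1, Ins2, Nkx6-1), 2 of 4 δ-cell markers (Sst, Ghsr) and 3 of 9 mesenchymal markers (Col1a1, Col1a2, Col3a1). Different clusters held most β-cells, α-cells, δ-cells and endothelial cells with and without cytokines, whereas macrophages and mesenchymal cells were 1 cluster each. With cytokines the δ-cell class had only 10 and 12 cells in its 2 libraries, and libraries shared at most 2 of the kept barcodes. Levels are given in CPM, the UMIs of a gene per 1000000 UMIs summed over the cells of a class in a library. The total covers the genes tested in that class and was scaled by TMM (trimmed mean of M-values, which sets the bulk of genes level). Both steps were done within each class, so the scale differs somewhat between classes. Summed markers of another class were set against all UMIs, with the same TMM factor. The treatment check Nos2, which encodes the inducible nitric oxide synthase, was at 0.0278 and 0 CPM in untreated β-cells, 193 and 162 CPM with cytokines, 461 and 464 CPM with cytokines and NMMA, and 0.0513 and 0 CPM with NMMA alone.

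Metallothioneins are small cysteine-rich proteins of the cytosol that bind zinc and copper and react with oxidants and nitric oxide, and their genes are transcribed when free zinc activates the transcription factor MTF-1 at metal response elements. Exporters of the Slc30 family carry zinc out of the cytosol, across the plasma membrane (ZnT1) or into vesicles, while importers of the Slc39 family carry it into the cytosol. Islet β-cells hold large amounts of zinc because ZnT8 loads it into secretory granules, where it is packed with insulin, and the gene for ZnT8 is a known locus of diabetes risk.

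Mt1 (GRCm38 chr8:94179082-94180327, + strand) and Mt2 (chr8:94172664-94173568, + strand) lie side by side, 5513 bp apart. The other members but Slc39a6, placed beside its values, are spread over the genome, with Slc30a8 at chr15:52295553-52335798, Slc30a1 at chr1:191906767-191913247, Slc39a14 at chr14:70303469-70351425 (minus strand), Slc39a8 at chr3:135825279-135888572 and Mtf1 at chr4:124802104-124849800.

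RefSeq promoters (GRCm38.p6, from 250 bases before to 50 after the annotated start) were matched for 5 members, and the 250 bases before the start are shown for the 3 members whose mRNA rose in β-cells with cytokines and whose promoter was matched. Capitals mark the core of the metal response element, TGCACNC or TGCGCNC on either strand (on the other strand it reads GNGTGCA or GNGCGCA).
Mt1, chr8:94178839-94179088, + strand: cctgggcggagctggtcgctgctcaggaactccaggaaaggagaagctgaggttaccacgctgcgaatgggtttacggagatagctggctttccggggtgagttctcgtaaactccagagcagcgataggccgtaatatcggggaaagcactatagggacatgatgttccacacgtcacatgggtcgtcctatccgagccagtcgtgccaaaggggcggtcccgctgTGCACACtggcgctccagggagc
Mt2, chr8:94172368-94172617, + strand: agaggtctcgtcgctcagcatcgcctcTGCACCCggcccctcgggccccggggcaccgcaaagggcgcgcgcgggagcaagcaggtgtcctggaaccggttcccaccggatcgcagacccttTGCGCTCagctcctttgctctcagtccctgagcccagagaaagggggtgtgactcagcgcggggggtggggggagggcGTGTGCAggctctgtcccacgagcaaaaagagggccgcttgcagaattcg
Slc30a1, chr1:191906531-191906780, + strand: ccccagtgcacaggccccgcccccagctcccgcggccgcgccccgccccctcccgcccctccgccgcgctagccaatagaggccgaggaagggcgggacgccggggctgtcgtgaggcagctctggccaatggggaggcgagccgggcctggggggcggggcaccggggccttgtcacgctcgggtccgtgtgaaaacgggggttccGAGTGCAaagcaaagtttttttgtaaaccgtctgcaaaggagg

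In the whole window the core occurred 4 times at Mt2 (223, 128 and 50 bases before and 4 bases after the start), 3 times at Mt1 (23 bases before, 2 and 20 bases after) and 2 times at Slc30a1 (43 bases before and 30 after). Neither Mtf1 nor the first of the 2 starts of Slc39a8 held a match, and the second start of Slc39a8 held 1. Among 32544 promoters of that length 25.9% held at least 1 match, 7.17% at least 2, 1.99% at least 3 and 0.522% at least 4. The antioxidant response element core TGACNNNGC was found 1 time each at Mt2 (79 bases before the start), Slc30a1 (82 bases before) and the first start of Slc39a8 (35 bases before), and in 12.4% of all promoters. The GENCODE annotation also lists Mt1 transcripts that start 122 and 152 bases downstream of the start used here. For Mt2 such starts lie 46 and 242 bases downstream, and for Slc30a1 475 bases. All cores counted at Mt1, also those after the start used, lie before these later Mt1 starts. Sequence beyond the window was not searched, so the counts do not cover the whole promoter of the later starts. These matches are of letters only, and no binding was measured.

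In β-cells, metallothionein mRNA rose with cytokines together with the mRNA of the exporter ZnT1, while the mRNA of the granule exporter ZnT8 fell. The named changes were 4.66-fold for Mt1, 6.03-fold for Mt2, 2.70-fold for Slc30a1 and 0.381-fold for Slc30a8 (2 libraries per condition). Of the 7 members with enough UMIs to test, 3 rose, 1 fell and 3 did not pass, against 46.3% of 12767 genes called in either direction in this comparison of which 23.8% were higher and 22.5% lower. The median log2 change was 0.80 over the 7 tested members and 0.00 over all genes tested. The eighth member, Slc39a8, had 1 to 6 UMIs in each β-cell sum (0.0556 to 0.255 CPM) and was not tested within any class.

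Mt1 in β-cells was at 848 and 2308 CPM untreated, 6832 and 7874 CPM with cytokines, 4788 and 5956 CPM with cytokines and NMMA, and 1821 and 3370 CPM with NMMA alone (replicate 1, then 2). Both cytokine libraries stood above the 6 others, both libraries with cytokines and NMMA came next, and the untreated and NMMA-alone libraries overlapped. Within a pool the cytokine level was 8.06 times the untreated level in replicate 1 and 3.41 times in replicate 2, and the untreated libraries differed by more than the cytokine libraries did. The log2 change with cytokines was 2.22 ± 0.55 (SE, n = 2 libraries per condition, edgeR quasi-likelihood test, Benjamini-Hochberg adjusted p = 0.022). Mt2 was lower in every library and ordered the conditions alike, at 213 and 738 CPM untreated, 2761 and 2966 CPM with cytokines, 1564 and 2216 CPM with cytokines and NMMA, and 588 and 1162 CPM with NMMA alone. Its log2 change was 2.59 ± 0.70 (edgeR adjusted p = 0.0332). The Mt1 call was lost without cytokines replicate 1 or 2 (log2 2.32 and 2.13, edgeR adjusted p = 0.0721 and 0.0766) and without cytokines with NMMA replicate 1 or 2 (2.22 and 2.23, adjusted p = 0.0549 and 0.0545). The Mt2 call was lost without the same libraries (log2 2.64, 2.55, 2.60 and 2.60, edgeR adjusted p = 0.105, 0.1, 0.0716 and 0.0712). Neither passed when scaled by total UMIs (Mt1 1.99, adjusted p = 0.0516, Mt2 2.35, adjusted p = 0.0606) or with only these 2 conditions in the fit (2.20 and 2.57, adjusted p = 0.0736 and 0.11).

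**Figure D1:**
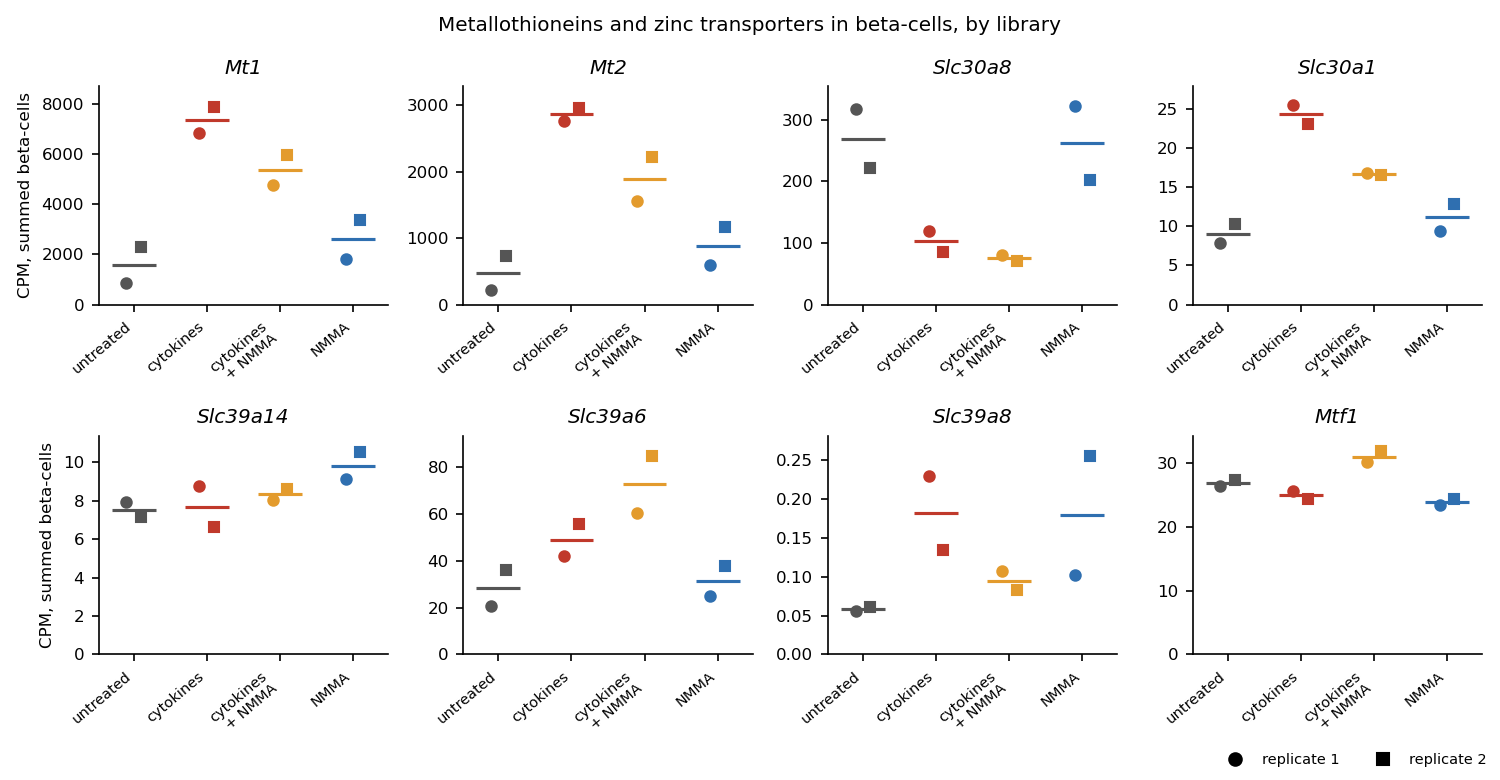
Level of each of the 8 genes in β-cells, in CPM of the summed UMIs, by condition. Circles are replicate 1, squares replicate 2 and horizontal lines the mean of the 2 libraries, and each panel starts at 0. Mt1, Mt2 and Slc30a1 are highest in the 2 cytokine libraries, Slc30a8 is lowest in the 4 libraries with cytokines, and Slc39a6 is highest with cytokines and NMMA.

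With cytokines nearly all β-cells had UMIs of both metallothioneins. To compare cells of like depth, β-cells were thinned to 11000 UMIs, and shallower cells were left out. The median β-cell then had 5 and 13 Mt1 UMIs in the 2 untreated libraries, 58 and 70.5 with cytokines, 45 and 58 with cytokines and NMMA, and 8 and 22.5 with NMMA alone. Cells between the 10th and 90th percentile ran from 1 to 22 and from 2 to 80.4 UMIs untreated, and from 21 to 131 and from 27 to 149 with cytokines. The 10th percentile with cytokines thus lay above the untreated median of the same replicate. With cytokines and NMMA the 10th percentile was lower, at 8 and 10.8 UMIs, and the 90th percentile was 128 and 149. The share of thinned β-cells with an Mt2 UMI was 57.5% (95% exact binomial interval 55.0 to 60.0, counting error only) and 78.5% (74.6 to 82.0) untreated, and 99.4% (98.7 to 99.7) and 99.8% (98.8 to 99.99) with cytokines (unthinned 71.4%, 88.2%, 99.4% and 99.5%). In endothelial cells, the class with the lowest Mt2, the untreated share was 6.82% and 8.70% after thinning to 4500 UMIs, where the median depth of endothelial cells was 9707 and 12981 UMIs against 20431 and 25330 in β-cells. Mt1 and Mt2 UMIs followed each other from cell to cell, with a Spearman correlation of 0.649 to 0.926 in the 8 libraries, whereas the correlation of Mt1 with Slc30a8 ran from -0.264 to 0.0369 (349 to 1557 cells per library, cells of 1 pool, counts from the same cell).

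**Figure D2:**
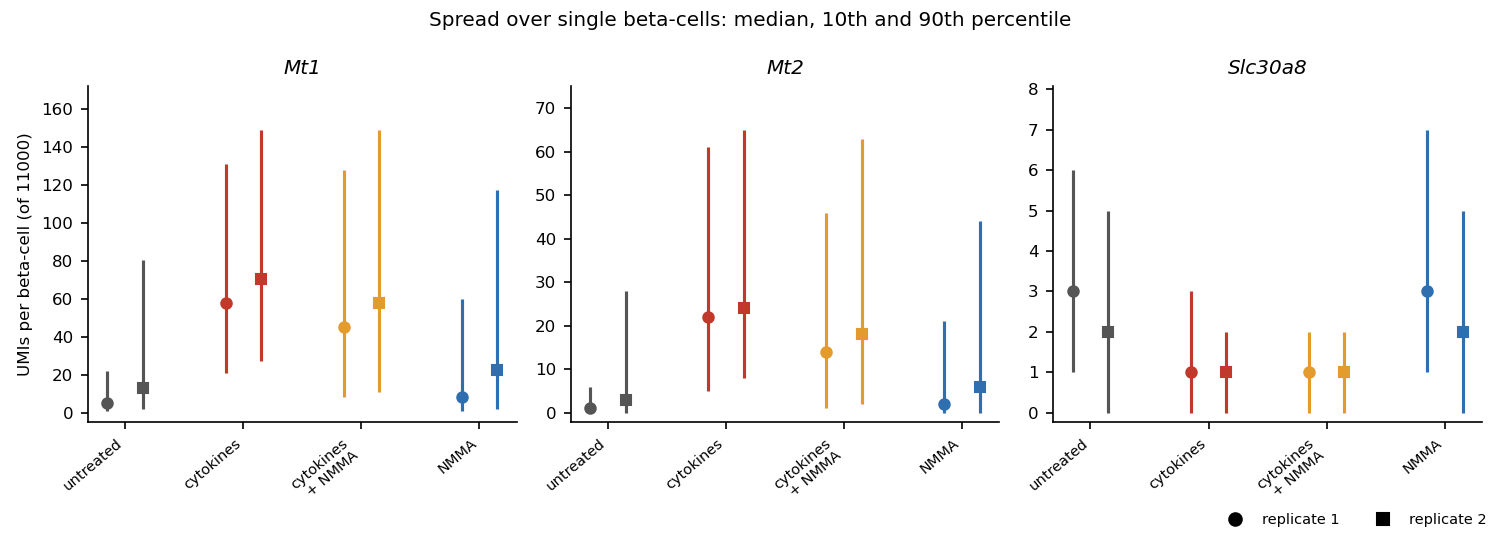
UMIs of Mt1, Mt2 and Slc30a8 per β-cell after thinning each cell to 11000 UMIs, by library. Markers (circles replicate 1, squares replicate 2) are medians over cells and lines run from the 10th to the 90th percentile of cells, not an error of the mean. The median for Mt1 is 58 and 70.5 with cytokines against 5 and 13 untreated, and the median for Slc30a8 is 1 in all 4 libraries with cytokines against 2 or 3 in the others.

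Slc30a8 encodes ZnT8, the transporter that fills insulin granules with zinc. Its level in β-cells was 317 and 221 CPM untreated, 119 and 85.9 CPM with cytokines, 81.0 and 71.3 CPM with cytokines and NMMA, and 322 and 201 CPM with NMMA alone. All 4 libraries with cytokines stood below all 4 without. The log2 change with cytokines was -1.39 ± 0.27 (edgeR adjusted p = 0.00362), and within a pool the level was 0.376 and 0.389 times the untreated level. The share of thinned β-cells with a Slc30a8 UMI was 95.2% (94.0 to 96.2) and 88.3% (85.2 to 91.0) untreated and 62.6% (59.6 to 65.4) and 57.0% (52.4 to 61.5) with cytokines, and unthinned it was 98.3%, 92.7%, 84.7% and 75.3%. In endothelial cells, where Slc30a8 was near 0, the untreated share was 2.27% and 6.52%. The call held in all 8 fits that left out 1 library and in all 8 other alternatives.

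Slc30a1 encodes ZnT1, the exporter of the plasma membrane. Its level was 7.84 and 10.3 CPM untreated, 25.5 and 23.1 CPM with cytokines, 16.8 and 16.6 CPM with cytokines and NMMA, and 9.43 and 12.8 CPM with NMMA alone. The cytokine libraries stood above those with cytokines and NMMA, and those above the 4 libraries without cytokines. The log2 change with cytokines was 1.43 ± 0.19 (edgeR adjusted p = 0.000419), and this call also held in all 16 alternative fits.

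Among the importers, Slc39a6 (ZIP6, GRCm38 chr18:24579881-24603817, minus strand) was at 20.7 and 35.9 CPM untreated, 42.3 and 55.8 CPM with cytokines, 60.6 and 85.0 CPM with cytokines and NMMA, and 25.2 and 37.9 CPM with NMMA alone. The cytokine libraries did not overlap with the untreated ones, yet the log2 difference of 0.80 ± 0.32 did not pass (edgeR adjusted p = 0.0815). With the replicate number as a block, which takes out the difference between replicates, it was 0.84 ± 0.11 (adjusted p = 2.03e-06). Slc39a14 (ZIP14), an importer that also carries iron and manganese, stayed between 6.61 and 10.5 CPM in all 8 libraries, and its log2 difference with cytokines was 0.03 ± 0.18 (edgeR adjusted p = 0.892, 95% interval -0.32 to 0.39). Mtf1, which encodes the zinc sensor itself, was at 23.4 to 31.9 CPM in all 8 libraries, with a log2 difference of -0.10 ± 0.11 with cytokines (edgeR adjusted p = 0.506, 95% interval -0.32 to 0.12). Scaling by total UMIs in place of TMM moved the median log2 change of all genes by -0.22, and under it the differences of Mtf1 and Slc39a14 were -0.32 and -0.19, the latter on the other side of 0 and neither past the threshold.

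Adding NMMA to the cytokines gave no called difference among the members. Of the 7 tested, 0 passed in edgeR and 0 in DESeq2, with 2 (Slc30a1 and Mtf1) at an unadjusted edgeR p under 0.05, against 19.5% of 12767 genes called. The median log2 difference, cytokines over cytokines with NMMA, was 0.43 over the members and -0.01 over all genes tested. Mt1 was 0.45 ± 0.52 higher without NMMA on the log2 scale (edgeR adjusted p = 0.595, 95% interval -0.57 to 1.48) and Mt2 0.60 ± 0.66 (adjusted p = 0.578, interval -0.69 to 1.89), intervals that run from lower to more than 2-fold higher. Slc30a1 was 0.54 ± 0.19 higher without NMMA (edgeR adjusted p = 0.0714) and Mtf1 0.31 lower (difference -0.31 ± 0.12, adjusted p = 0.0897). In edgeR with the replicate number as a block, 4 members passed. Slc30a1 (0.55 ± 0.14, adjusted p = 0.00401) and Slc30a8 (0.41 ± 0.11, adjusted p = 0.00518) were higher without NMMA. Slc39a6 (-0.56 ± 0.10, adjusted p = 0.000328) and Mtf1 (-0.31 ± 0.10, adjusted p = 0.0233) were lower without it. The 19.5% is from the fit without a block. The share of all genes called with the block is not given here, so the 4 cannot be set against it. Mt1 and Mt2 did not pass with the block, and scaling by total UMIs called Mtf1 alone (-0.52, adjusted p = 0.0219).

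Compared with untreated β-cells, cells with cytokines and NMMA had 3 called members of 7, where 22.6% of 12767 genes were called. Slc30a8 fell by 1.82 on the log2 scale (SE 0.27, edgeR adjusted p = 0.00196), Slc30a1 rose by 0.89 ± 0.19 (adjusted p = 0.00952) and Slc39a6 rose by 1.37 ± 0.33 (adjusted p = 0.0232). The Slc30a1 call was lost without untreated replicate 1 (log2 0.70, adjusted p = 0.0951), and the Slc39a6 call without untreated replicate 1 (1.02, adjusted p = 0.0869) or without cytokines with NMMA replicate 2 (1.11, adjusted p = 0.111). Mt1 was 1.77 ± 0.54 (edgeR adjusted p = 0.0729, block 1.90 with adjusted p = 0.039, DESeq2 adjusted p = 0.0143) and Mt2 1.99 ± 0.68 (edgeR adjusted p = 0.106, DESeq2 adjusted p = 0.0204). The median log2 change was 0.89 over the members and 0.00 over all genes. The comparison shares its untreated libraries with that of cytokines alone. NMMA by itself gave 0 called members of 7 in edgeR and in DESeq2, with 0 at an unadjusted edgeR p under 0.05, and 0% of all genes tested were called by edgeR. Mt1 with NMMA alone was 0.72 ± 0.53 above untreated on the log2 scale (edgeR adjusted p = 0.853, 95% interval -0.31 to 1.75), and its ratio within a pool was 2.15 and 1.46.

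Cells of the same library were also divided by whether they had a Nos2 UMI after thinning to 11000 UMIs, in the 4 libraries with cytokines. With cytokines 535 and 211 cells had a Nos2 UMI and 566 and 259 had none, and with cytokines and NMMA 431 and 214 had one and 188 and 135 had none. The split compares cells that shared a culture, its CPM are of plain UMI totals without TMM, and 7.94% of 9900 genes were called, among them 2 of the 7 tested members, with a median log2 difference of -0.17 over the members and -0.01 over all genes. Slc39a6 was higher in cells with Nos2 in every library, at 46.2 against 29.7 CPM and 60.3 against 41.4 CPM with cytokines, and 73.4 against 53.2 CPM and 104 against 53.9 CPM with cytokines and NMMA. Slc30a8 was lower in cells with Nos2 in every library, at 92.9 against 124 CPM and 78.4 against 90.2 CPM with cytokines, and 80.4 against 116 CPM and 66.7 against 111 CPM with cytokines and NMMA. The log2 differences were 0.58 ± 0.10 for Slc39a6 (edgeR with library as a block, adjusted p = 1.26e-05) and -0.51 ± 0.09 for Slc30a8 (adjusted p = 4.41e-05). Both calls held in all 4 fits without 1 library and with DESeq2 (adjusted p = 0.00956 and 0.0146). Mt1 and Mt2 differed by -0.17 ± 0.11 and -0.18 ± 0.10 (edgeR adjusted p = 0.407 and 0.326), lower with Nos2 in 3 of 4 libraries and higher in cytokines replicate 2. The study reports that β-cells with high Hspa1a did not raise Nos2. A β-cell cluster led by heat shock genes, described below, had higher Slc30a8 and lower Slc39a6 than other β-cells in these 4 libraries. Its part in the split was not tested.

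**Figure D3:**
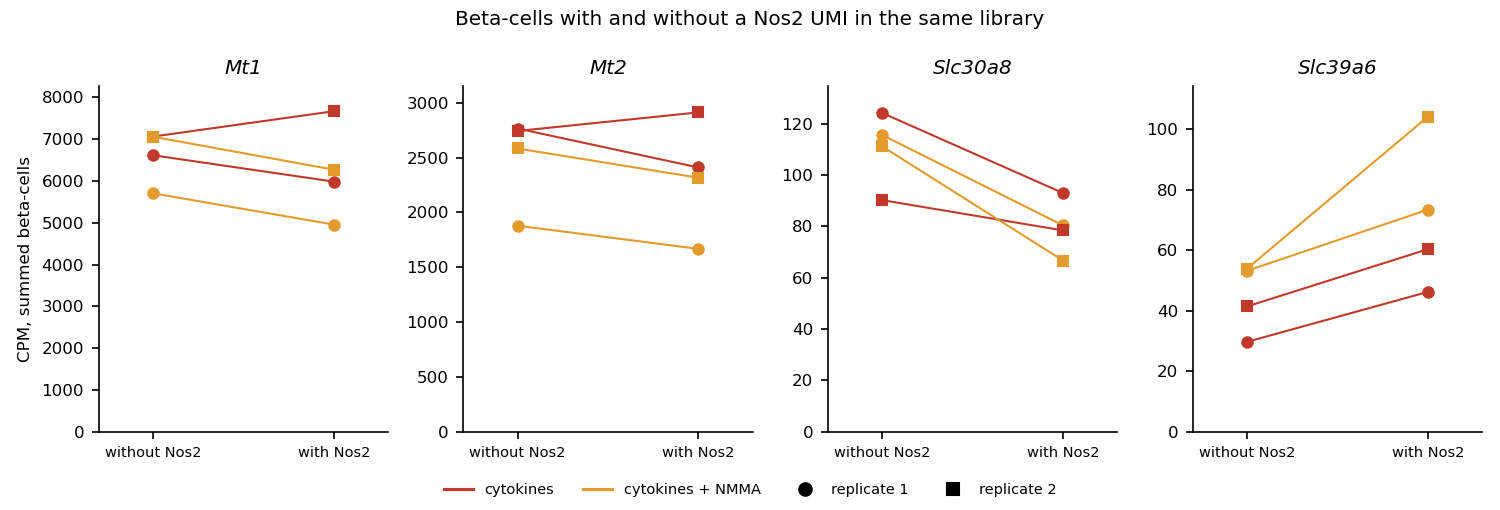
Level (CPM of summed β-cells thinned to 11000 UMIs) in cells without and with a Nos2 UMI of the same library, with lines joining the 2 sums of a library. Red is cytokines and orange cytokines with NMMA, circles are replicate 1 and squares replicate 2. All 4 lines fall for Slc30a8 and rise for Slc39a6, whereas for Mt1 and Mt2 the line of cytokines replicate 2 rises and the other 3 fall.

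The other zinc genes of β-cells, taken from lists of the remaining family members, moved in both directions. With cytokines, of 5 tested Slc30 exporters outside the members (8 listed) 1 rose, Slc30a4 (log2 change 0.88), and 2 fell, Slc30a9 (-0.65) and Slc30a5 (-0.51). Of 7 tested Slc39 importers (11 listed) 2 rose, Slc39a1 (0.73) and Slc39a3 (0.66), and 3 fell, Slc39a10 (-1.19), Slc39a13 (-0.58) and Slc39a9 (-0.44). The brain metallothionein Mt3, the only other metallothionein with enough UMIs, was -0.46 ± 0.52 (edgeR adjusted p = 0.501). In all 3 of these 13 genes rose and 5 fell, with a median of -0.32, where 46.3% of all genes tested were called. Of 5 further genes known as MTF-1 targets 3 rose, Csrp1 (1.63), Selenow (1.54) and Ndrg1 (0.71), 1 fell, the iron exporter Slc40a1 (-0.85), and Gclc (0.31) did not pass, with a median of 0.71.

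Of these genes, 5 of the 13 transporters and metallothioneins and 3 of the 5 MTF-1 targets also differed between cytokines with and without NMMA, where 19.5% of all genes tested were called. Slc39a1 (ZIP1), an importer of the plasma membrane, was at 11.7 and 16.7 CPM untreated, 23.4 and 23.4 CPM with cytokines, and 41.5 and 44.9 CPM with cytokines and NMMA. The 3 levels did not overlap, and the log2 difference of cytokines over cytokines with NMMA was -0.88 ± 0.19 (edgeR adjusted p = 0.0141). Slc30a7 (-0.84) and Slc39a9 (-0.47) were likewise lower without NMMA, and Slc30a4 (0.59) and Slc39a3 (0.62) higher. Slc40a1 was at 24.4 and 28.6 CPM untreated, 13.6 and 15.8 CPM with cytokines and 5.71 and 7.47 CPM with cytokines and NMMA, so the fall was larger when NMMA was added (log2 difference 1.17 ± 0.17, adjusted p = 0.00414). Selenow (0.86) and Gclc (0.62) were also higher without NMMA.

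Across the islet, untreated macrophages had by far the highest Mt1. Mean levels were 10175 ± 1669 CPM (SD, n = 2) in macrophages, 1578 ± 1033 in β-cells, 870 ± 765 in δ-cells, 724 ± 175 in mesenchymal cells, 375 ± 214 in α-cells and 94.2 ± 68.1 in endothelial cells. Macrophages stood clear of β-cells, α-cells stood below mesenchymal cells and above endothelial cells, and the ranges of β-cells, δ-cells and mesenchymal cells overlapped. With cytokines β-cells (7353 ± 737) reached the range of macrophages (8385 ± 1595), and the order below them was α-cells, mesenchymal cells, then δ-cells and endothelial cells, whose ranges overlapped. For Mt2, β-cells with cytokines (2864 ± 145 CPM) stood above α-cells (1714 ± 352) and macrophages (1620 ± 32.4), which overlapped. The ratio of Mt1 to Mt2 UMIs, both counted at the 3′ end of the mRNA, was 2.47 to 3.99 in β-cells and 4.42 to 8.99 in macrophages, ranges of 8 libraries that do not overlap. The longest identical run between the annotated Mt1 and Mt2 transcripts is 20 bases, so few reads could be shared.

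Untreated Slc30a8 was highest in α-cells (378 ± 80.9 CPM), then β-cells (269 ± 68.0), and these ranges did not overlap. δ-cells had 58.6 ± 23.7 CPM, and mesenchymal cells (29.2 ± 31.0), macrophages (26.6 ± 5.52) and endothelial cells (4.03 ± 0.274) less. At the Ins2 level of each sum, β-cell RNA of the same library would account for 42.8% to 107% of the Slc30a8 in macrophages and 25.1% to 75.4% in mesenchymal cells, in libraries where it was seen, and the part of such free RNA was not tested. Slc30a1 was highest in macrophages (41.3 ± 0.333 CPM), followed by endothelial (28.2 ± 1.92) and mesenchymal cells (23.8 ± 9.67), and the 3 endocrine classes were at 8.37 to 9.07 CPM with overlapping ranges. Slc39a14 and Slc39a6 were highest in mesenchymal cells (46.3 ± 2.96 and 67.0 ± 8.06 CPM), Mtf1 in endothelial cells (45.8 ± 3.05 CPM), and each of these stood clear of the next class. Slc39a8 had at most 6 UMIs in any sum, with its highest untreated means in macrophages (6.96 CPM), δ-cells (5.02 CPM) and endothelial cells (4.74 CPM), which overlapped.

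**Figure D4:**
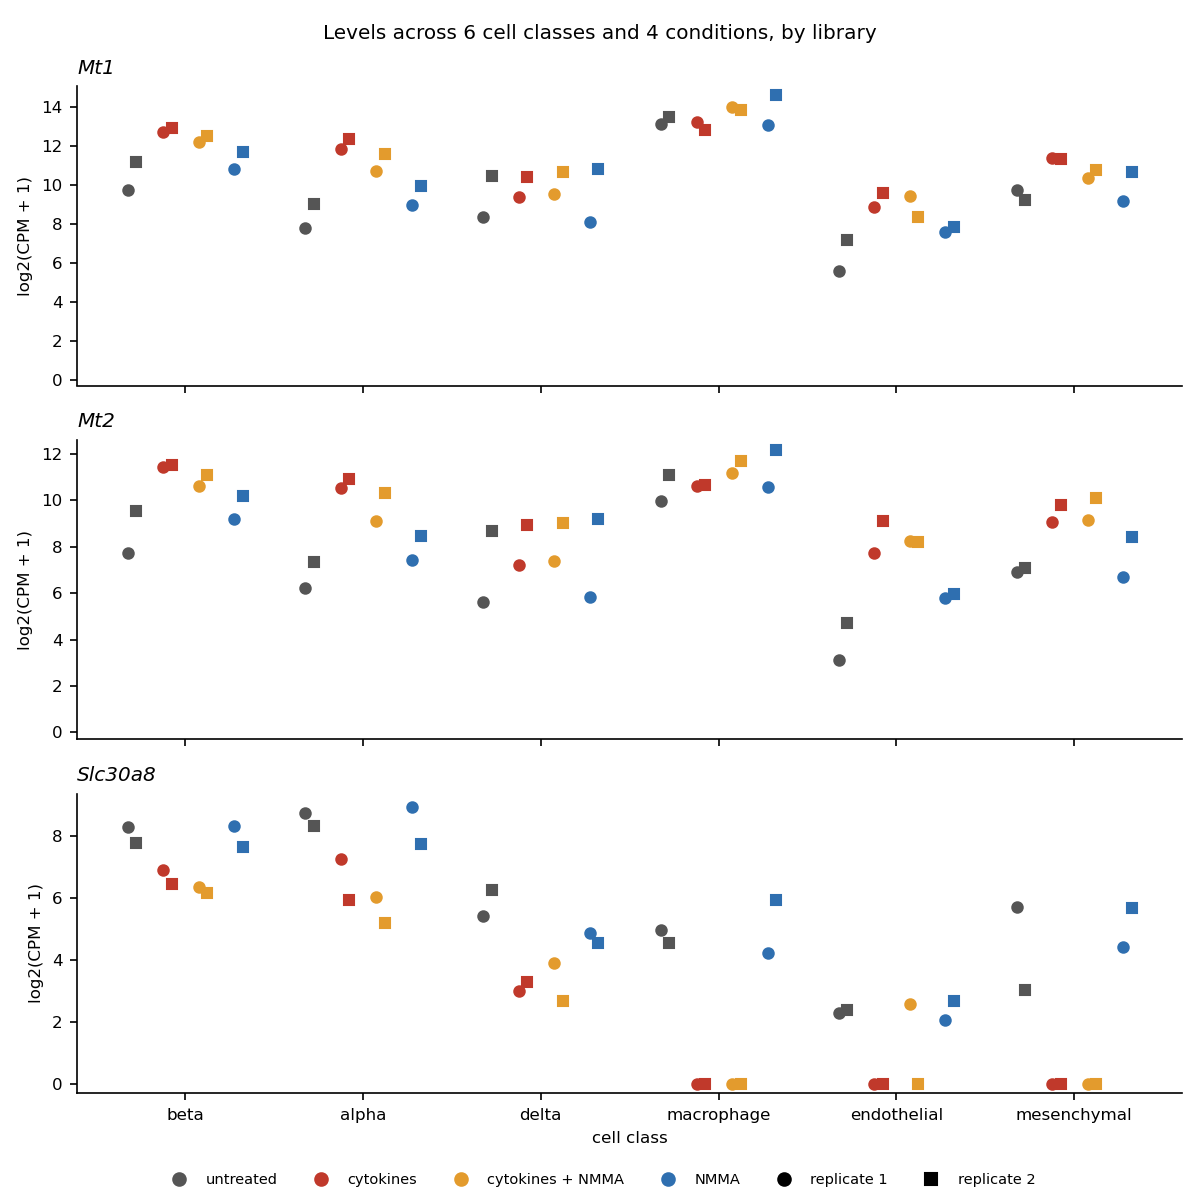
Levels of Mt1, Mt2 and Slc30a8 as log2(CPM + 1) in the 6 cell classes, by library. Colours are the 4 conditions, circles replicate 1 and squares replicate 2, and points at 0 are sums with no UMI. Mt1 in macrophages is high in every condition, whereas in β-cells and α-cells both metallothioneins are higher and Slc30a8 is lower in the libraries with cytokines.

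In the sums of α-cells, the metallothioneins changed with cytokines by more than in β-cells. All 61 and 61 of 73 α-cells with cytokines lay in a cluster led by Hspa1a, Hspa1b and Hspb1, which encode heat shock proteins, with no α-cell marker among its 10 leading genes, and that cluster held 3 of 83 and 1 of 94 untreated α-cells. With cytokines and NMMA it held 34 of 117 and 11 of 98. Its part in the changes below was not tested. Mt1 was at 223 and 526 CPM untreated, 3651 and 5266 CPM with cytokines, 1679 and 3052 CPM with cytokines and NMMA, and 502 and 997 CPM with NMMA alone. Mt2 was at 74.7 and 160 CPM untreated, 1466 and 1963 CPM with cytokines, 554 and 1288 CPM with cytokines and NMMA, and 170 and 354 CPM with NMMA alone. For both genes the cytokine libraries stood above all others, and those with cytokines and NMMA above the 4 without cytokines. The log2 changes with cytokines were 3.57 ± 0.68 for Mt1 (edgeR adjusted p = 0.0248) and 3.86 ± 0.73 for Mt2 (adjusted p = 0.0255), 2 called members of 7 where 22.5% of 9908 genes were called, with a median of 0.59 over the members and -0.03 over all genes. The Mt1 call was lost without cytokines replicate 1 (3.82, adjusted p = 0.079) or 2 (3.30, adjusted p = 0.0874), and the Mt2 call without any 1 untreated or cytokine library (3.46 to 4.55, adjusted p = 0.0509 to 0.0904). Neither passed with finer clusters (Leiden resolution 2, 3.09 and 3.39, adjusted p = 0.0619 and 0.0623), nor did Mt1 without the filter on low counts (adjusted p = 0.0509).

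Tested directly, the cytokine change of Mt1 was 1.37 ± 0.21 larger in α-cells than in β-cells on the log2 scale (edgeR with library as a block, adjusted p = 2.86e-06, DESeq2 adjusted p = 7.05e-06), and that of Mt2 1.22 ± 0.22 larger (adjusted p = 0.000393, DESeq2 adjusted p = 0.00491). These are the 2 members called of 7, against 5.24% of 12756 genes, and the median difference was -0.13 over the members and 0.01 over all genes. In the fits between classes edgeR drew the spread almost wholly from all genes, so the DESeq2 value is given beside each. The Mt2 difference was not called without untreated replicate 2 (0.79, edgeR adjusted p = 0.108) or with finer clusters (0.70, adjusted p = 0.126). Insulin mRNA in the α-cell sums moved with the condition, with Ins2 at 4387 and 6665 CPM untreated and 52614 and 40864 CPM with cytokines, and the 9 β-cell markers summed to 7962 and 10850 CPM untreated and 78516 and 57682 CPM with cytokines. At the Ins2 level of each α-cell sum, β-cell RNA of the same library would account for 5.12% to 32.3% of the Mt1 and 4.35% to 32.5% of the Mt2. For Mt1 this share was 5.80% and 10.8% untreated, 32.3% and 18.5% with cytokines, and 13.7% and 32.3% with cytokines and NMMA. Its part in the larger α-cell change was not tested.

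Slc30a8 in α-cells was at 435 and 320 CPM untreated, 151 and 59.8 CPM with cytokines, 64.8 and 35.5 CPM with cytokines and NMMA, and 488 and 215 CPM with NMMA alone. All 4 libraries with cytokines stood below the 4 without. The log2 difference of -1.87 ± 0.68 with cytokines did not pass (edgeR adjusted p = 0.133) but did with the replicate block (-1.97 ± 0.18, adjusted p = 1.68e-13), and the same held with cytokines and NMMA (-2.91 ± 0.70, adjusted p = 0.0991, block -2.98 ± 0.18 with adjusted p = 5.57e-21). In that last comparison 8.14% of genes were called and 0 of 7 members in edgeR, 4 of them at an unadjusted p under 0.05, while DESeq2 called 3 (Mt1, Mt2 and Slc30a8). With the block Mt1 (2.70, adjusted p = 1.35e-23), Mt2 (2.94, adjusted p = 4.12e-21) and Slc39a6 (0.78, adjusted p = 0.0227) passed there too. Between cytokines with and without NMMA, where 10.9% of genes were called, 0 members passed in edgeR or DESeq2, with 0 at an unadjusted edgeR p under 0.05, and with the block Mt1 (0.96, adjusted p = 2.2e-07), Mt2 (1.01, adjusted p = 4.93e-07) and Slc30a8 (1.01, adjusted p = 0.000155) were higher without NMMA. With NMMA alone, edgeR with the block gave Mt1 1.03 (adjusted p = 2.05e-05) and Mt2 1.16 (adjusted p = 3.36e-05) above untreated. Without the block 0% of genes were called there, 0 members passed in edgeR or DESeq2 and 0 had an unadjusted edgeR p under 0.05. The shares of all genes in this paragraph are from fits without the block. The share called with the block is not given here, so the block calls cannot be set against it. With the block Slc30a1 also passed with cytokines (1.05, adjusted p = 0.0397, without the block 0.0828).

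In δ-cells, Mt1 was at 328 and 1411 CPM untreated, 657 and 1382 CPM with cytokines, 741 and 1607 CPM with cytokines and NMMA, and 273 and 1782 CPM with NMMA alone. Every library of replicate 2 stood above every library of replicate 1. Within replicate 1 both libraries with cytokines stood above those without, and within replicate 2 they overlapped. The log2 difference with cytokines was 0.24 ± 1.24 (edgeR adjusted p = 0.951, 95% interval -2.20 to 2.68), too wide to tell whether Mt1 changed. Within a pool, Mt2 was 3.086 and 1.202 times the untreated level with cytokines (replicate 1, then 2). It was 3.51 and 1.264 times that level with cytokines and NMMA, and 1.183 and 1.458 times with NMMA alone. Slc30a8 fell, from 41.8 and 75.3 CPM (40 and 40 UMIs) untreated to 7.07 and 8.89 CPM (1 and 2 UMIs) with cytokines and 13.8 and 5.33 CPM (13 and 4 UMIs) with cytokines and NMMA. The log2 changes were -2.76 ± 0.70 (edgeR adjusted p = 0.0183) and -2.49 ± 0.44 (adjusted p = 0.000833), the only called member of 5 in each, against 7.99% and 8.32% of 7922 genes. The first was lost without cytokines replicate 1 (-2.66, adjusted p = 0.0532) or 2 (-2.97, adjusted p = 0.0926) and without untreated replicate 2 (-2.40, adjusted p = 0.0813), in DESeq2 (-2.86, adjusted p = 0.0942) and with finer clusters (-2.47, adjusted p = 0.139). The median with cytokines was 0.31 over the 5 members and 0.03 over all genes. Against β-cells, 0 of 8 members differed in their cytokine change in edgeR, with 1 at an unadjusted p under 0.05, where 3.19% of genes were called, and that 1, Mt1, was at -1.98 ± 0.69 (adjusted p = 0.263, DESeq2 adjusted p = 0.0498). Markers of PP-cells in the δ-cell sums moved with the condition, at 95978 and 153563 CPM untreated, 44384 and 23594 CPM with cytokines, and 44775 and 63020 CPM with cytokines and NMMA. Sst itself ran from 24444 to 93365 CPM in these sums, so the class was mixed. Untreated PP-cells had Slc30a8 at 188 and 68.8 CPM. Markers of α-cells, the class highest in Slc30a8, were at 7338 and 31243 CPM untreated. They were at 1693 and 32363 CPM with cytokines, and 7317 and 15503 CPM with cytokines and NMMA. The Ins2 of δ-cells implied 8.37% to 93.0% of their Slc30a8. The part of PP-cell, α-cell or β-cell RNA in the change was not tested.

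**Figure D5:**
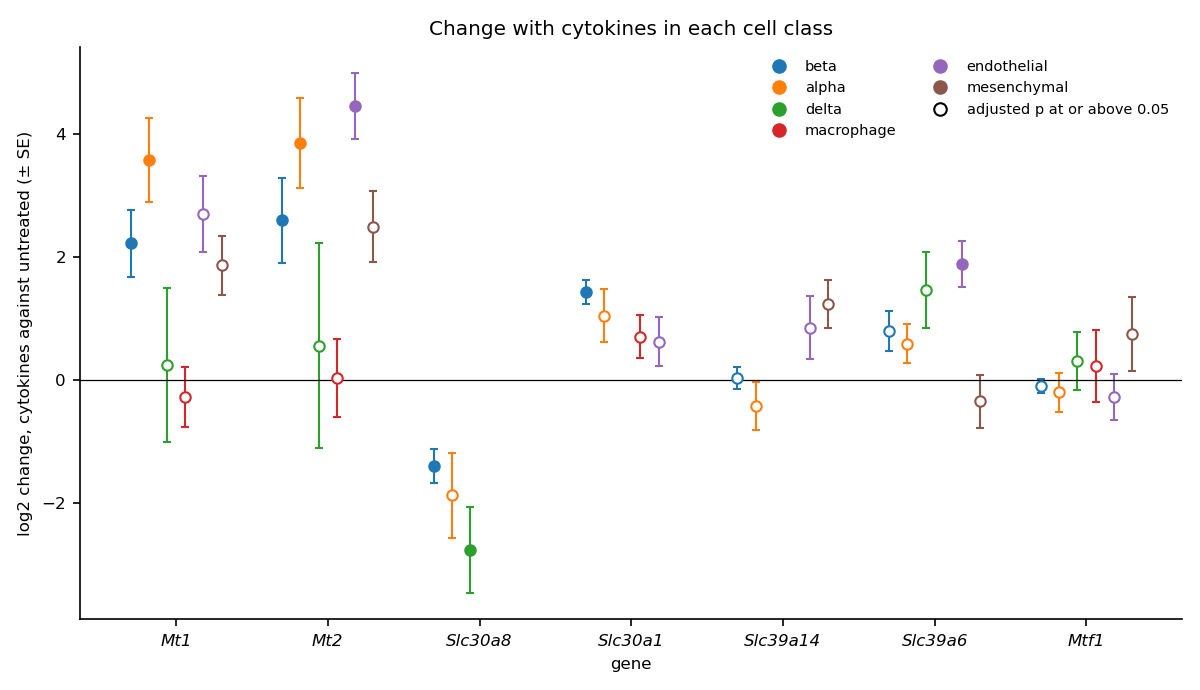
Log2 change with cytokines against untreated for each gene in each cell class, with bars of 1 SE from edgeR on 2 libraries per condition. Filled points passed an adjusted p of 0.05 and open points did not, and genes not tested in a class, and Slc30a8 where the cytokine libraries held no UMI, have no point. Mt1 and Mt2 are near 0 in macrophages and positive in β-cells, α-cells, endothelial and mesenchymal cells.

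Macrophages kept high metallothionein levels with and without cytokines. Mt1 was at 8994 and 11355 CPM untreated, 9513 and 7257 CPM with cytokines, 16540 and 14826 CPM with cytokines and NMMA, and 8579 and 25373 CPM with NMMA alone. The cytokine and untreated libraries overlapped, with a log2 difference of -0.28 ± 0.49 (edgeR adjusted p = 0.877, 95% interval -1.23 to 0.68), and Mt2 gave 0.03 ± 0.63 (adjusted p = 0.994). The cytokine change was smaller than in β-cells by 2.45 ± 0.22 for Mt1 (edgeR with library as a block, adjusted p = 2.62e-22, DESeq2 adjusted p = 9.77e-06) and by 2.49 ± 0.23 for Mt2 (adjusted p = 2e-23, DESeq2 adjusted p = 1e-13), where 4.41% of 12793 genes and 3 of 8 members were called, with medians of -1.47 over the members and -0.11 over all genes. Both held in all 8 fits that left out 1 library. The difference between cytokines with and without NMMA also departed from that in β-cells, by -1.31 ± 0.21 for Mt1 (adjusted p = 1.28e-06, DESeq2 adjusted p = 0.12) and -1.33 ± 0.23 for Mt2 (adjusted p = 3.71e-06, DESeq2 adjusted p = 0.00194), the 2 members called of 8, against 0.868% of genes called, with medians of -0.40 and 0.03. In macrophages the metallothioneins were lower without NMMA in both pools, and in β-cells higher. The β-cell markers in macrophage sums fell with cytokines, from 17362 and 41912 CPM to 2272 and 7170 CPM, and β-cell RNA at that level would account for 0.346% to 2.23% of macrophage Mt1.

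Slc30a8 in macrophages was 11 and 16 UMIs untreated and 0 UMIs in all 4 libraries with cytokines. Against a floor of 3 counts over the group it was at least 6.58-fold lower with cytokines and at least 6.97-fold lower with cytokines and NMMA. edgeR called both (adjusted p = 0.0475 and 0.0341), the only called member of 5 in each comparison, where 4.62% and 6.46% of 5156 genes were called, with medians of 0.03 and 0.60 over the members, the fitted values of this gene included, and -0.01 and -0.02 over all genes. Both calls were lost without untreated replicate 1 or 2, without NMMA replicate 2 and without either library of the treated condition itself (adjusted p = 0.0576 to 0.16). The cytokine change of Slc30a8 also differed from that in β-cells (edgeR adjusted p = 0.0144, DESeq2 adjusted p = 0.103), a call lost without cytokines replicate 1 (adjusted p = 0.428) or 2 (adjusted p = 0.0592). From the Ins2 of these sums, 0.275 and 0.499 UMIs of Slc30a8 were to be expected from β-cell RNA in the cytokine libraries, against 4.71 and 17.1 in the untreated libraries, where 11 and 16 were seen. In untreated replicate 2 the level was thus no higher than the background given by Ins2. Without marked doublets the difference was not called (adjusted p = 0.113), and within macrophages the gene had too few UMIs to be tested. Slc30a1 in macrophages was at 41.6 and 41.1 CPM untreated and 83.3 and 49.2 CPM with cytokines, a log2 difference of 0.70 ± 0.35 (edgeR adjusted p = 0.375).

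Endothelial cells had the lowest metallothionein levels untreated. Mt2 was at 7.68 and 25.4 CPM untreated, 214 and 546 CPM with cytokines, 306 and 292 CPM with cytokines and NMMA, and 54.2 and 61.2 CPM with NMMA alone. All 4 libraries with cytokines stood above the 4 without, and both NMMA libraries above the untreated ones. Mt2 rose by 4.45 ± 0.53 on the log2 scale with cytokines (edgeR adjusted p = 0.000625) and by 4.07 ± 0.53 with cytokines and NMMA (adjusted p = 0.00116), from 4 and 18 UMIs untreated. The importer Slc39a6 was at 21.1 and 16.9 CPM untreated, 59.6 and 77.6 CPM with cytokines, 78.9 and 95.7 CPM with cytokines and NMMA, and 43.0 and 55.8 CPM with NMMA alone, and it rose by 1.88 ± 0.37 (adjusted p = 0.00325) and 2.23 ± 0.35 (adjusted p = 0.000399). The first Slc39a6 call was lost without cytokines replicate 2 (1.65, adjusted p = 0.104).

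These 2 members of 6 were the ones called in endothelial cells, where 6.32% and 6.73% of 7514 genes were called, and the medians were 1.37 and 1.35 over the members and -0.02 and -0.03 over all genes. Mt1, at 46.1 and 142 CPM untreated and 467 and 770 CPM with cytokines, did not pass in edgeR (2.69 ± 0.62, adjusted p = 0.0676) and passed in DESeq2 (adjusted p = 3.72e-07), and with cytokines and NMMA it was 2.38 ± 0.61 (edgeR adjusted p = 0.0957, DESeq2 adjusted p = 1.08e-05). The cytokine change of Mt2 was 1.996 ± 0.36 larger than in β-cells (edgeR adjusted p = 2.36e-06, DESeq2 adjusted p = 0.00785, 6.30% of 13257 genes and 1 of 8 members called, medians -0.06 and 0.29), and it was not called without cytokines replicate 2 (1.28, adjusted p = 0.0745) or untreated replicate 2 (1.95, adjusted p = 0.0554). β-cell RNA would account for 3.01% to 33.2% of endothelial Mt2 and 0.379% to 2.42% of Slc39a6. The 11 macrophage markers summed to 1490 CPM in endothelial cells with cytokines and NMMA, replicate 1, and to 1.75 to 17.8 CPM in the 7 other endothelial libraries. Macrophages of that library had 16540 CPM of Mt1 and 2316 CPM of Mt2, and the part of their RNA in its endothelial metallothionein levels was not tested.

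In mesenchymal cells, Mt2 was at 119 and 133 CPM untreated, 534 and 885 CPM with cytokines, 560 and 1083 CPM with cytokines and NMMA, and 103 and 340 CPM with NMMA alone. The 4 libraries with cytokines stood above the other 4. At the Ins2 level of each sum, β-cell RNA would account for 1.45% to 39.5% of mesenchymal Mt1 and 1.91% to 64.9% of Mt2. Both shares were highest in NMMA replicate 2, and the part of this RNA in the levels was not tested. Mt2 rose with cytokines and NMMA (2.70 ± 0.57, edgeR adjusted p = 0.0475), the only called member of 6 where 1.95% of 5327 genes were called, and the call was lost without either untreated (2.63 and 2.79, adjusted p = 0.381 and 0.318) or either cytokine library (2.70 and 2.72, adjusted p = 0.062 and 0.063) and without cytokines with NMMA replicate 2 (2.14, adjusted p = 0.207), as well as with at least 20 cells per library (3.10, adjusted p = 0.0533). With cytokines alone, where 1.88% of genes were called, 0 of 6 passed in edgeR and 4 had an unadjusted p under 0.05, among them Mt2 (2.49 ± 0.57, adjusted p = 0.0695) and Mt1 (1.86 ± 0.48, adjusted p = 0.0997), and with the block Mt2 (2.44, adjusted p = 0.00088) and Mt1 (1.84, adjusted p = 0.0317) passed. DESeq2 called both without it (adjusted p = 0.00233 and 0.0151). None of 7 members had a cytokine change that differed from that in β-cells in edgeR or DESeq2, with 4 at an unadjusted edgeR p under 0.05 and 1.72% of genes called. Slc39a14, highest in this class, was at 44.3 and 48.4 CPM untreated and 132 and 92.6 CPM with cytokines (13 and 20 UMIs against 18 and 25), a log2 difference of 1.24 ± 0.39 (edgeR adjusted p = 0.218). The medians over the members were 0.99 with cytokines and 0.93 with cytokines and NMMA, and 0.00 and -0.01 over all genes. Slc30a8 was 15 and 3 UMIs untreated and 0 UMIs in all 4 libraries with cytokines, which did not pass (adjusted p = 0.432 and 0.441), and β-cell markers in this class ran from 2579 to 72476 CPM.

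In the 4 smaller classes, 0 of the 5 or 6 tested members differed between cytokines with and without NMMA in edgeR or DESeq2, with 0 at an unadjusted edgeR p under 0.05, where 0.745% of genes were called in δ-cells, 0.116% in macrophages and 0% in endothelial and mesenchymal cells. With NMMA alone 0 members and 0% of genes were called in these classes by edgeR, and DESeq2 called 0 members. At an unadjusted edgeR p under 0.05 there were 0 members in macrophages and mesenchymal cells, 1 in δ-cells (Slc30a8, log2 -1.13) and 2 in endothelial cells (Mt2 1.71 and Slc39a6 1.38). The difference between cytokines with and without NMMA departed from that in β-cells for 0 members in α-cells (2.01% of genes), δ-cells (2.51%), endothelial (1.53%) and mesenchymal cells (0.282%), in edgeR and in DESeq2, and the members at an unadjusted edgeR p under 0.05 were 2 in α-cells (Mt1 0.51 and Slc30a8 0.58) and 0 in the others.

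The genes whose levels were most like those of Mt1 over the 8 β-cell sums were Mt2 (Pearson r of log2 CPM 0.998), Uqcrq, a subunit of respiratory complex III (0.985), Stk40 (0.985), Cd164 (0.984) and Cggbp1 (0.977), out of 4650 genes with a mean of at least 20 CPM. The genes most like Slc30a8 were Mlxipl (0.991), which encodes the glucose-responsive factor ChREBP, Cspp1 (0.989), Ttc8 (0.986), Wnt4 (0.984) and Fkbp9 (0.981). Over all 48 sums of class and library (6407 genes) the nearest to Mt1 were Mt2 (0.954), Grina (0.829), Il1b (0.823), Creg1 (0.796) and Uap1l1 (0.792), and the nearest to Slc30a8 were Ddc (0.930), Sphkap (0.921), Ociad2 (0.916), Cadps (0.903) and Wnt4 (0.884). The points share libraries, pools and conditions, so these values describe likeness only.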

How the data were processed

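Per the labels, islets of each condition were dispersed and captured with a 10x Genomics 3′ kit (v2 in the labels, v3 in the study's methods), and CellRanger (matrix headers 3.0.0 and 6.0.0, build mm10) gave the deposited counts, raw UMIs per gene and barcode that the authors did not normalize. The members and gene lists were chosen with earlier results of these data known. Barcodes with 200 to 5500 (replicate 1) or 6500 (replicate 2) genes and at most 10% mitochondrial UMIs were kept (62.4%). Cells were clustered with scanpy 1.11.5 (2000 variable genes, 30 components, Leiden resolution 1) and named from marker lists. Scrublet marked 200 doublets (1.84%), which were kept. UMIs were summed per class and library (at least 10 cells) and tested over all genes with edgeR 4.0.16 (filterByExpr, TMM, robust quasi-likelihood, 4 conditions in 1 fit, Benjamini-Hochberg, threshold 0.05), with DESeq2 1.42.0 as an alternative. Differences between classes and the Nos2 split had library as a block. Same-numbered libraries share a pool by the study's methods, and their deviations correlated at 0.655 to 0.751 in β-cells and at 0.138 or more in each class. The deposited gene lists also differ by replicate, with 31053 genes in replicate 1 and 32285 in replicate 2. A difference between replicates can thus not be divided into pool and processing. Free β-cell RNA was estimated from Ins2. Named genes are the 8 members, Nos2, called genes of the zinc lists, markers, and the 5 genes most like Mt1 and Slc30a8. Positions are from GENCODE M21 and promoters from RefSeq. Alternatives were DESeq2, scaling by total UMIs, no filter on low counts, the replicate number as a block, only the conditions compared in the fit, Leiden resolution 2, at least 20 cells per library, removal of doublets, and leaving out each library in turn. Intervals of shares are exact binomial and cover counting error only. The 2421 unnamed cells entered no test. The test code was tried on simulated data.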

Additional observations from a re-analysis of the deposited data

Results flagged for a closer look

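The results below stand out because the effect of 1 treatment differed between 2 cell classes by a direct test of that difference (edgeR with library as a block, since the classes share libraries). The log2 change of the metallothioneins with cytokines was larger in α-cells than in β-cells by 1.37 for Mt1 and 1.22 for Mt2, with a mean α-cell Mt1 of 375 CPM untreated and 4459 CPM with cytokines against 1578 and 7353 CPM in β-cells. With cytokines all 61 and 61 of 73 α-cells lay in the cluster led by heat shock genes, against 3 of 83 and 1 of 94 untreated. β-cell markers in the α-cell sums were 7962 and 10850 CPM untreated and 78516 and 57682 CPM with cytokines. The part of either was not tested. The α-cell Mt2 difference was not called with finer clusters (0.70, edgeR adjusted p = 0.126). The cytokine change of the metallothioneins was also larger in endothelial cells for Mt2, by 1.996, and by 1.28 without cytokines replicate 2. In macrophages it was smaller than in β-cells, with differences of -2.45 for Mt1 and -2.49 for Mt2. The difference between cytokines with and without NMMA departed from that in β-cells in macrophages too, by -1.31 for Mt1, which did not pass in DESeq2 (adjusted p = 0.12), and -1.33 for Mt2. The change of Slc30a8 with cytokines differed between macrophages and β-cells at an edgeR adjusted p of 0.0144, with 11 and 16 UMIs in untreated macrophages, of which Ins2 implied 4.71 and 17.1 from β-cell RNA, and 0 with cytokines. It did not pass in DESeq2 (adjusted p = 0.103) or without doublets (adjusted p = 0.113).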

How the results depend on the processing

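The 59 member results called in the main fit or in at least 1 alternative were followed. Over their 896 alternative values, 763 kept both direction and side of the threshold, 55 lost and 77 gained a call, and all 28 called results kept their sign. Among these only Slc39a6 in δ-cells with cytokines turned, to -0.35 without cytokines replicate 2 (2.04 without cytokines replicate 1). Results never called, such as Slc39a14 in β-cells with cytokines, which turned with total-UMI scaling, were not followed. Counts of called members moved as follows, and the causes were not tested. The shares of all genes given above are from the main fit and not from these alternatives. In β-cells with cytokines 4 became 2 with total-UMI scaling or 2 conditions in the fit and 5 with DESeq2, no filter or the replicate block (2 to 5 leaving out 1 library). Between cytokines with and without NMMA 0 became 1 with total-UMI scaling or 2 conditions, 3 without a filter and 4 with the replicate block (0 to 1). With cytokines and NMMA 3 became 5 with DESeq2 or without a filter (1 to 5), and with NMMA alone 0 became 2 without a filter. Over the 4 comparisons, α-cells went from 2 to 5 (DESeq2), 1 (no filter), 13 (replicate block), 4 (2 conditions) and 0 (Leiden resolution 2; 0 to 3), δ-cells from 2 to 1 (DESeq2; 1 to 2), macrophages from 2 to 0 (2 conditions, or without doublets; 0 to 2), endothelial cells from 4 to 6 (DESeq2) and 7 (no filter; 3 to 6), and mesenchymal cells from 1 to 3 (DESeq2, replicate block or 2 conditions), 5 (no filter) and 0 (at least 20 cells; 0 to 2). Of the differences from β-cells between cytokines with and without NMMA, 2 became 1 with DESeq2. The minimum of 20 cells could not be run for δ-cells or, over all 5 classes, for differences from β-cells. With 2 pools, 10 and 12 δ-cells and 15 endothelial cells in some libraries, depth limits the smaller classes, and Slc39a8 was below what these depths can compare.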

Other observations

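A cluster of 643 β-cells was led by heat shock genes, with Hspa1a at 1391 to 3436 CPM against 14.5 to 186 CPM in other β-cells of the same library (CPM of total UMIs). The cells were clustered on these same data, so the values are a description. Mt1 in that cluster was 3486 against 826 CPM and 5195 against 2080 CPM in the untreated libraries (replicate 1, then 2). With cytokines alone the order was the other way, at 3787 against 6219 CPM and 5970 against 7261 CPM. With cytokines and NMMA, Mt1 was again higher in the cluster, at 5832 against 4841 CPM and 7494 against 6077 CPM. The same order was seen with NMMA alone, at 5914 against 1579 CPM and 6393 against 3037 CPM. Slc30a8, which encodes the granule zinc transporter, was 233 against 99.7 CPM and 137 against 65.7 CPM with cytokines, and 235 against 326 CPM and 207 against 239 CPM untreated. Slc39a6 was 15.4 against 64.7 CPM and 19.0 against 98.7 CPM with cytokines and NMMA.

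Acinar cells, in replicate 1 with 8 to 18 cells per library, had Mt1 at 1924 CPM of total UMIs untreated. The value was 6475 CPM in the cytokine library, 16962 CPM in the NMMA library and 17705 CPM where both were given. The median acinar cell had 0.109 times the median UMIs of its library. The 8 cells with cytokines and NMMA nevertheless summed to 164646 UMIs, so these levels can rest on few deep cells. In cytokines replicate 2 there was 1 acinar cell, with 49249 UMIs and Mt1 at 17808 CPM. In PP-cells, Mt1 was at 293 and 603 CPM untreated and at 482 CPM (3 cells) and 1876 CPM (17 cells) with cytokines. With NMMA alone it was at 421 and 1690 CPM (26 cells each). No test was run in acinar or PP-cells.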
